A study of Mus musculus with 6 samples.

Results

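Sphingosine-1-phosphate (S1P) genes were examined in RNA of sorted endothelial cells of the glomerulus, the capillary tuft in which the kidney filters blood. The members were chosen by symbol: the receptor genes S1pr1, S1pr2 and S1pr3, the kinase genes Sphk1 and Sphk2, the lyase gene Sgpl1, the phosphatase gene Sgpp1 and the exporter gene Spns2. Of these 8 members, 7 had a row among the 12911 genes of the deposited tables, and all 7 passed the filter on low counts. Sphk1 had no row and was not analysed here.

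All mice were labelled eNOS-null, that is without endothelial nitric oxide synthase. The control group received no treatment, and the other group received streptozotocin (STZ), which destroys insulin-producing beta cells and serves as a diabetes model. Each group had 3 libraries, and each library held pooled RNA of 4 mice, so the errors below are those between pools, not between single mice. Cells positive for the fluorescent protein EYFP were sorted from bead-isolated, enzyme-treated glomeruli. No source used here gives the driver of EYFP or the strain, age, sex and time under treatment of the mice. Genes were compared between eNOS-null mice with and without STZ, which is the question that the labels set.

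S1P is a lipid messenger that is made inside cells when sphingosine, the backbone released from ceramide, is phosphorylated by the sphingosine kinases. It is exported by Spns2 in endothelial cells, and it is removed by dephosphorylation to sphingosine or by irreversible cleavage by the lyase. Outside the cell it acts on G protein-coupled receptors. S1PR1 couples to Gi, activates Rac and strengthens endothelial junctions, whereas S1PR2 and S1PR3 also couple to G12/13 and Gq.

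Total deposited counts ran from 4387339 to 8751732.5 in control libraries and from 10734376 to 12662371.5 in STZ libraries, so every STZ library was deeper. Values below are CPM, that is counts relative to library size after TMM normalisation, and a gene was called when its Benjamini-Hochberg adjusted p over the 12786 tested genes was under 0.05 in edgeR's quasi-likelihood test. Nos3, the gene that the genotype targets, stood at 847, 757 and 917 CPM in control and at 613, 749 and 667 CPM in STZ pools (-0.31 ± 0.11 on the log2 scale, adjusted p = 0.0910 by edgeR). A count per gene does not show which allele its transcripts carry. All 15 glomerular endothelial markers were detected, with Plat (2630.5 CPM in control, 8303 in STZ) and Ehd3 (3001 and 5230.0 CPM) the most abundant over the 6 libraries. Xist stood at 709 CPM in control and 0.687 CPM in STZ pools, and all 4 Y-linked genes examined were higher in STZ. Treatment and the sex of the pools therefore cannot be told apart in any comparison given here.

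In STZ pools S1pr1 and Sgpp1 rose and none of the other 5 members passed the test, although the values of S1pr3 and Spns2 were lower in every STZ library than in every control library. The 2 members called higher compare with 5.47% of all tested genes called higher, and the 0 called lower with 4.32% called lower. The median log2 fold change of the 7 members was -0.001, beside -0.0117 over all tested genes. At an unadjusted p under 0.05 the members S1pr3 and Spns2 were lower as well. Libraries of the groups did not overlap in 2 members on the higher side and 2 on the lower side, where 15.4% and 13.7% of all tested genes had such a separation.

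**Figure D1:**
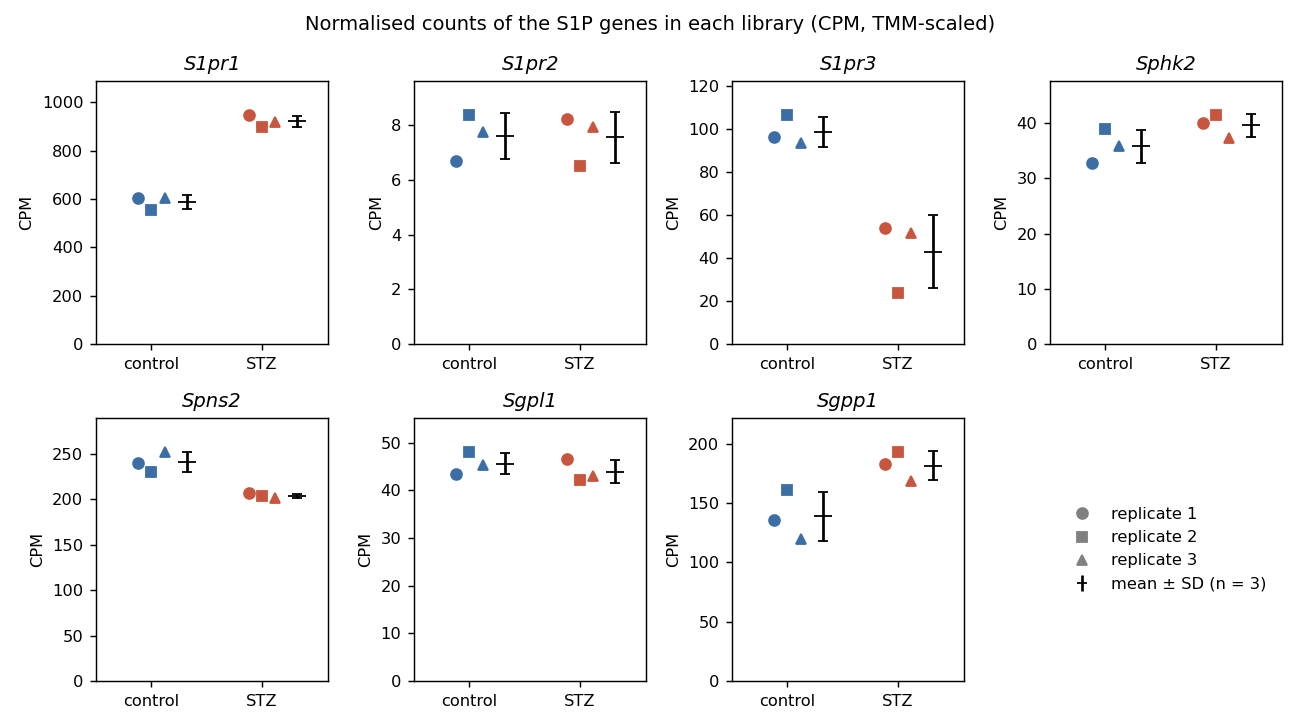
Normalised counts (CPM, linear axis from 0) of the 7 measured members in each of the 3 control (blue) and 3 STZ (red) libraries, with the mean and SD beside them. S1pr1 and Sgpp1 lie higher in all STZ libraries, S1pr3 and Spns2 lie lower in all, and S1pr2, Sphk2 and Sgpl1 overlap.

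S1pr1, the main S1P receptor of endothelial cells (NM_007901; mm10 chromosome 3, 115710433 to 115715055, minus strand), has 2 exons in the GENCODE annotation, of which 1 holds the coding sequence of 1146 nt. The control pools 1, 2 and 3 had 5500, 3455 and 2732 counts and the STZ pools 9780, 10400 and 11359. In CPM the control pools stood at 604, 555 and 603.5 and the STZ pools at 945.5, 899 and 919. The lowest STZ pool was thus far above the highest control pool. The mean of 588 ± 28.3 CPM in control rose to 921 ± 23.2 CPM in STZ (SD, n = 3 each). This is a log2 fold change of 0.65 ± 0.09 (SE) or 1.57-fold (95% interval 1.37 to 1.80), with an adjusted p of 0.000575 by edgeR. The receptor was called whichever library was left out (largest adjusted p 0.00611). With the summed mesangial and mural marker level as a covariate, which itself differs between the groups, the estimate was 0.69 ± 0.19 and the adjusted p 0.111.

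S1pr2, a receptor that couples to G12/13 (NM_010333; chromosome 9, 20965952 to 20976793, minus strand), was scarce, with counts of 61, 52 and 35 in control and 85, 75 and 98 in STZ pools. Its CPM were 6.70, 8.35 and 7.73 in control and 8.22, 6.49 and 7.93 in STZ pools. The groups overlapped throughout. The log2 fold change was -0.0007 ± 0.20 (95% interval -0.43 to 0.43, adjusted p = 0.999 by edgeR), so that a difference of up to 1.35-fold in either direction lay within the interval. The listed transcript of 2815 nt is shorter than the GENCODE transcript paired with the same accession, whose 3' untranslated region alone holds 5114 nt, so its level per length rests on the listed model.

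S1pr3, a receptor of endothelial and vascular smooth muscle cells (NM_010101; chromosome 13, 51408618 to 51422797, plus strand), had counts of 874, 661 and 422 in control and of only 557, 273 and 635 in the deeper STZ libraries. In CPM the control pools stood at 96.0, 106 and 93.2 and the STZ pools at 53.85, 23.6 and 51.4. STZ pool 2 was the lowest, and the STZ pools varied with a coefficient of variation of 39.1% against 6.91% in control. The mean was 98.5 ± 6.80 in control and 43.0 ± 16.8 CPM in STZ (SD, n = 3 each). The log2 fold change of -1.20 ± 0.33 (95% interval -2.04 to -0.36) did not pass in edgeR (adjusted p = 0.102). It did pass without STZ pool 2 (-0.91, adjusted p = 0.000141), in DESeq2 (adjusted p = 0.0128), in limma-voom (adjusted p = 0.00788) and in an edgeR fit that was not robust (adjusted p = 0.0100).

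Markers of mesangial and mural cells, which surround the glomerular capillaries and arterioles, were lower in the same libraries. Of 15 tested markers, 6 were called lower by edgeR, 9 by DESeq2 and 11 by limma-voom, and all 15 estimates were negative, with a median log2 fold change of -0.86. Their summed level ran from 1402 to 1516 CPM in control and from 532 to 989 CPM in STZ pools. It was lowest in STZ pool 2, as S1pr3 was. Relative to the control mean, S1pr3 stood at 0.547, 0.24 and 0.522 in STZ pools 1, 2 and 3 and the summed markers at 0.57, 0.36 and 0.669. Pdgfrb and Itga8, the most abundant of them, went from 231 to 90.0 CPM and from 232 to 129 CPM, and neither passed the test (adjusted p = 0.0538 and 0.192 by edgeR). With the summed level as a covariate, which itself differs between the groups, the S1pr3 estimate was 0.02 ± 0.23. A covariate that separates the groups cannot be told apart from treatment. The part of the mural markers in the S1pr3 result was not tested. In bulk RNA, fewer cells of a type and less RNA per cell cannot be told apart.

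The endothelial markers moved the other way, with 8 of 15 called higher and 0 lower (median 0.42). Their summed level ran from 18130 to 19610 CPM in control and from 28750 to 31170 CPM in STZ pools. Relative to the control mean, S1pr1 stood at 1.61, 1.53 and 1.56 in the STZ pools and the summed markers at 1.63, 1.65 and 1.52. Not all endothelial genes moved so. The angiopoietin receptor gene Tek had a log2 fold change of 0.02 ± 0.09 and its partner Tie1 one of -0.01 ± 0.09, both picked with their values known. The endothelial sum is weighted towards abundant genes. Plat, the most abundant, rose from 2630.5 to 8303 CPM and had the largest log2 fold change of the list (1.66 ± 0.14). The nearness of the summed ratios to those of S1pr1 therefore does not hold for each marker. The part of the endothelial markers in the S1pr1 result was not tested. Podocyte markers overlapped between groups in their summed level (4862 to 7758 CPM in control, 5174 to 6399 in STZ), and 0 of 12 were called by edgeR, DESeq2 or limma-voom. Of these, 2 had an unadjusted p under 0.05.

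**Figure D2:**
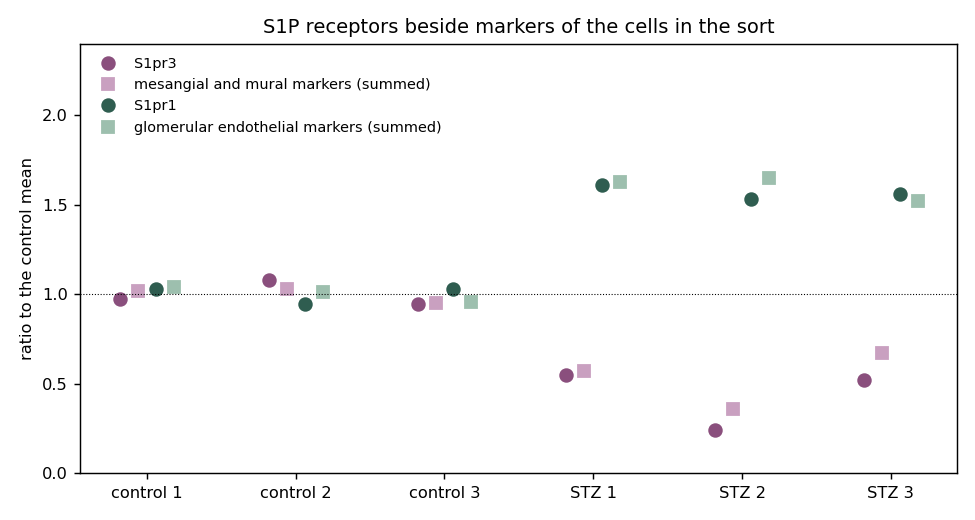
Ratio of each library's CPM to the mean of the 3 control libraries (linear axis from 0) for S1pr3, S1pr1 and the summed markers of mesangial and mural cells and of glomerular endothelium. In STZ pools S1pr3 and the mural markers lie below 1, both lowest in pool 2, and S1pr1 and the endothelial markers lie between 1.52 and 1.65. The endothelial sum includes Plat, the marker with the largest log2 fold change (1.66).

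Levels of different genes were compared per kilobase of listed transcript. S1pr1 was the most abundant member, at 194 ± 9.35 CPM per kb in control and 304 ± 7.65 in STZ (SD, n = 3 each), and its mean over the 6 libraries was higher than that of 98.2% of tested genes or equal to it. In control it was followed by Spns2 (74.0), Sgpp1 (41.7), S1pr3 (22.0), Sgpl1 (11.1), Sphk2 (10.1) and S1pr2 (2.70). Only Sgpl1 and Sphk2 overlapped among neighbours in that order. In STZ pools S1pr3 (5.27 to 12.0 CPM per kb), Sphk2 (10.5 to 11.7) and Sgpl1 (10.2 to 11.3) all overlapped with each other. The remaining neighbours stayed apart.

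The balance of receptor transcripts was therefore described in each library, with S1pr4 (a receptor best known from leukocytes) included because it was detected. S1pr1 made up 86.05%, 82.9% and 85.3% of the summed level per kb of the 4 receptors in control pools 1, 2 and 3 and 93.1%, 94.3% and 93.0% in STZ pools. S1pr3 made up 9.24%, 10.7% and 8.90% in control and 3.58%, 1.67% and 3.51% in STZ. The level of S1pr1 per kb was 9.32, 7.74 and 9.58 times that of S1pr3 in control pools and 26.0, 56.4 and 26.5 times in STZ pools. These ratios do not overlap between groups. They carry no test, and S1pr3 enters them with the mural markers given above.

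**Figure D3:**
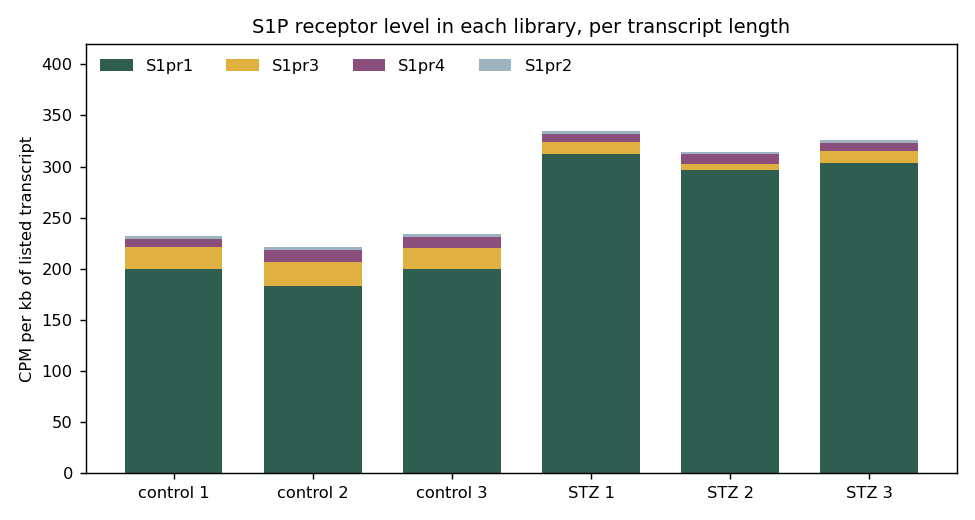
Level of the 4 detected S1P receptor genes in each library, stacked, in CPM per kb of listed transcript (linear axis from 0). The sum lies at 221 to 234 in control and 315 to 335 in STZ libraries, S1pr1 makes up most of every bar, and S1pr3 is narrower in STZ.

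On the synthesis side Sphk2, the sphingosine kinase of nucleus and mitochondria (NM_203280; chromosome 7, 45709463 to 45718002, minus strand), had 32.9, 38.9 and 35.8 CPM in control and 40.1, 41.4 and 37.4 CPM in STZ pools. Control pool 2 lay within the STZ range. Its log2 fold change of 0.15 ± 0.11 (95% interval -0.09 to 0.39, adjusted p = 0.463 by edgeR) did not pass. Sphk2 shares 539 exonic bases with Dbp, a clock-controlled gene on the opposite strand, and the strand setting of the counting is not given in the sources used here, so reads of these genes cannot be told apart there. Dbp stood at 62.1, 84.0 and 58.3 CPM in control and 88.4, 140 and 81.7 CPM in STZ pools, with overlapping groups.

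Spns2, the transporter that releases S1P from endothelial cells (NM_153060; chromosome 11, 72451638 to 72489920, minus strand), had 240, 231 and 252 CPM in control and 207, 204 and 202 CPM in STZ pools. All STZ pools lay below all control pools and within a narrow range. The mean was 241 ± 10.8 CPM in control and 204 ± 2.33 CPM in STZ (SD, n = 3 each). The log2 fold change of -0.24 ± 0.08 (95% interval -0.42 to -0.06) had an adjusted p of 0.0994 by edgeR and was not called. Of 17 alternatives 1 called it, the fit with the summed podocyte marker level as a covariate (-0.25 ± 0.08, adjusted p = 0.0246 by edgeR). That fit called 2203 genes in place of 1251. With 1 library left out, the adjusted p of Spns2 by edgeR ran from 0.0898 to 0.265. It was 0.103 in DESeq2, 0.0890 in limma-voom and 0.572 by edgeR with the mural covariate.

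On the side of removal, Sgpp1 rose. Sgpp1 encodes the phosphatase of the endoplasmic reticulum that returns S1P to sphingosine (NM_030750; chromosome 12, 75714248 to 75735729, minus strand, 3 exons). It had counts of 1233, 1002 and 541 in control and 1888, 2230 and 2084 in STZ pools, or 135.5, 161 and 119.5 CPM in control and 182.5, 193 and 169 CPM in STZ. The highest control pool and the lowest STZ pool lay close together. The mean went from 139 ± 20.9 to 181 ± 12.1 CPM (SD, n = 3 each), a log2 fold change of 0.39 ± 0.11 or 1.31-fold (95% interval 1.11 to 1.54, adjusted p = 0.0419 by edgeR). Leaving out any library but control pool 2 ended the call, with adjusted p of 0.151 and 0.0931 without control pools 1 and 3 and of 0.136, 0.105 and 0.0627 without STZ pools 1, 2 and 3. It was also lost with the mural covariate (0.24 ± 0.22, adjusted p = 0.685), in limma-voom (0.0543), with upper-quartile normalization (0.0502), in a fit that was not robust (0.0556) and at equal depth (0.0569).

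Sgpl1, the lyase that ends the pathway by cleaving S1P (NM_009163; chromosome 10, 61098642 to 61147665, minus strand, 15 exons), had 43.5, 48.0 and 45.3 CPM in control and 46.6, 42.1 and 43.0 CPM in STZ pools. The groups overlapped. The log2 fold change was -0.05 ± 0.10 (95% interval -0.27 to 0.17, adjusted p = 0.799 by edgeR). Per kb, the log2 ratio of Sgpp1 to Sgpl1 was 1.95, 2.055 and 1.71 in control and 2.28, 2.51 and 2.28 in STZ pools. That of Sphk2 to Sgpl1 was -0.19, -0.09 and -0.125 in control and -0.001, 0.191 and 0.014 in STZ pools. Both ratios were higher in every STZ pool than in every control pool, and neither carries a test.

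**Figure D4:**
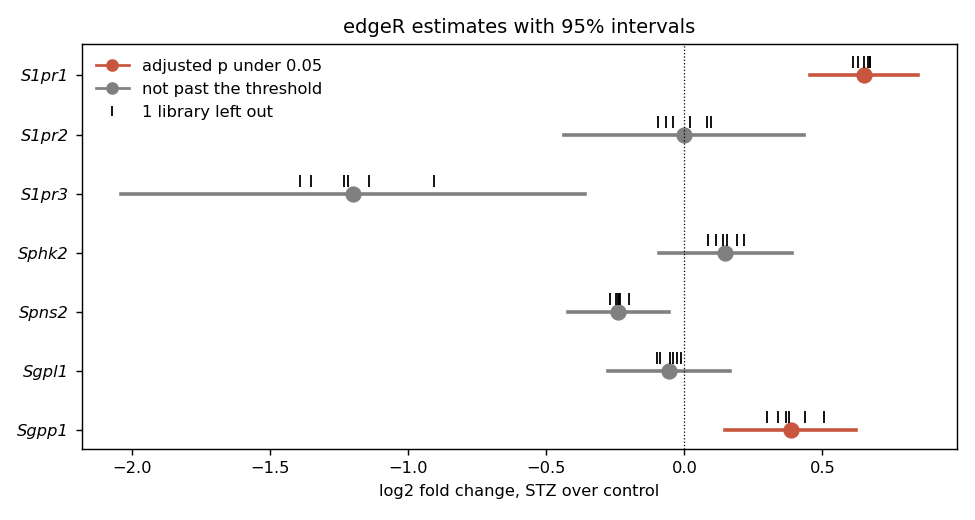
Log2 fold change of STZ over control for the 7 measured members, with 95% intervals from the edgeR fit of all genes (red: adjusted p under 0.05). Black ticks give the estimate with 1 library left out. S1pr1 and Sgpp1 lie above 0, S1pr3 has the widest interval (-2.04 to -0.36), and the intervals of S1pr2, Sphk2 and Sgpl1 include 0.

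Promoter sequence is shown for the members with the largest difference in each direction among those with an entry in the RefSeq promoter table (GRCm38.p6, the build of mm10). Of the 8 members 7 had an entry, and S1pr1 had none. Each sequence is the 250 bases upstream of the annotated start, 5′ to 3′ on the gene's strand. Capitals mark matches, on either strand, to 5 common promoter motifs, the GC box GGGCGG, the CACCC box, the TATA box TATAAA, the CCAAT box and the E-box CACGTG. A match on the opposite strand appears as its reverse complement. No match overlaps another. The Sgpp1 stretch is chr12:75735730-75735979 (minus strand) and the S1pr3 stretch is chr13:51408368-51408617 (plus strand).
Sgpp1: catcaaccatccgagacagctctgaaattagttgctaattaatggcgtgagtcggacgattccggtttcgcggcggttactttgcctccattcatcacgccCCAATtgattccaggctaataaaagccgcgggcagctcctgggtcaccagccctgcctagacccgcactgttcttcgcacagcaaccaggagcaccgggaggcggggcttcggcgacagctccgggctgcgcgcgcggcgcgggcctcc
S1pr3: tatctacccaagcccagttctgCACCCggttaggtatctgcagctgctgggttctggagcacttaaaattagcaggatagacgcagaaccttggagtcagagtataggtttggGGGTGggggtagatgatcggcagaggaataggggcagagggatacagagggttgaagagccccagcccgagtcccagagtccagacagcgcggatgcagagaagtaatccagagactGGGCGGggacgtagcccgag

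The Sgpp1 stretch held 1 CCAAT box, whose first base lies 149 bases upstream of the start, and a GC content of 61.2%. The S1pr3 stretch held 1 GC box at 20 bases and CACCC boxes at 228 bases and, on the opposite strand, at 137 bases, with a GC content of 56.4%. The median GC content of all 32851 promoter entries was 52.4%. Of these entries 32.7% held a GC box, 52.0% a CACCC box, 12.4% a TATA box, 33.8% a CCAAT box and 6.02% an E-box in the same window. These matches are a description of the letters and not of bound factors.

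Other genes of S1P handling were followed in a list of 15 genes, of which 12 were tested. In STZ pools 3 were called higher and 0 lower, 25.0% against 9.78% of all tested genes called in either direction, with a median log2 fold change of 0.01. Those called were Abcg2, an efflux transporter (68.0 ± 7.60 to 121 ± 4.02 CPM, 0.83 ± 0.10), and Ppap2b and Ppap2a, lipid phosphate phosphatases that act on extracellular S1P and lysophosphatidic acid. Ppap2b rose from 1067 ± 124 to 1539 ± 142 CPM (0.53 ± 0.11, adjusted p = 0.00983 by edgeR) and Ppap2a from 1529 ± 138 to 2076 ± 103 CPM (0.44 ± 0.10, adjusted p = 0.0151). Both calls were lost without STZ pool 1 (adjusted p = 0.0525 and 0.0859). The remaining 9, among them S1pr4 (-0.18 ± 0.15) and the blood cell exporter gene Mfsd2b (-0.27 ± 0.17, picked with its value known), did not pass.

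Upstream of S1P, several enzymes that break down or use ceramide rose. Of 23 tested genes for ceramidases, sphingomyelin and glycosphingolipid enzymes, 6 were called higher and 1 lower (30.4%, median 0.14), whereas of 13 tested genes of ceramide synthesis 1 was called (7.69%, median -0.02). Over all tested genes 9.78% were called in either direction. The difference between these lists was not tested. Acer2, the Golgi ceramidase that releases sphingosine, the substrate of the kinases, stood at 349, 288 and 279.5 CPM in control and at 708, 725 and 682 CPM in STZ pools. Every STZ pool lay far above every control pool. Its log2 fold change of 1.21 ± 0.10 (adjusted p = 1.19e-05 by edgeR) was larger than that of any member.

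Sgms1, which turns ceramide into sphingomyelin, stood at 175 ± 14.5 CPM in control and rose to 373 ± 28.9 CPM in STZ (1.09 ± 0.10, adjusted p = 1.88e-05 by edgeR). St3gal5, which makes the ganglioside GM3, rose by 0.79 ± 0.13 and Cerk, the ceramide kinase gene, by 0.49 ± 0.09 on the log2 scale. The sphingomyelinase-like gene Smpdl3a (0.48 ± 0.09) was also called higher, and Galc, the galactosylceramidase gene, was the one called lower (-0.58 ± 0.16), both chosen after their values were seen. A replicate block ended the Galc call (adjusted p = 0.0664), as did leaving out any library but control pool 3 (0.113 to 0.150). In the synthesis list Ormdl2, a regulator of the enzyme that starts ceramide synthesis, was called (6.03 to 10.2 CPM, 0.74 ± 0.21, adjusted p = 0.0428 by edgeR). That call was lost in DESeq2 (adjusted p = 0.0559), in limma-voom (0.0583), in a fit that was not robust (0.0508), with a replicate block (0.0735) and without control pools 1 or 3 or STZ pools 1 or 3 (0.0911 to 0.166).

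Among 30 tested genes of receptor coupling and trafficking, 3 were called higher and 2 lower (16.7%, median 0.08). Of all tested genes 9.78% were called in either direction, 5.47% higher and 4.32% lower. The genes of the Gi, Gq and G12/13 alpha subunits did not pass. Cdh5, the junction cadherin (1072 to 1489 CPM, 0.47 ± 0.10), and Arrb1, the beta-arrestin that takes part in receptor internalisation (275 to 352 CPM, 0.36 ± 0.09), rose, as did Rac1 (0.33 ± 0.09), chosen after its value was seen. Leaving out any library but control pool 2 ended the Rac1 call (0.0568 to 0.204), and leaving out control pool 1, STZ pool 1 or STZ pool 3 ended that of Arrb1 (0.0823, 0.0857 and 0.1325). With a replicate block both were lost (Rac1 0.106, Arrb1 0.0696), and 3 genes of the list were called. Rgs5 (69.2 to 31.7 CPM, -1.13 ± 0.12) and Rgs4 (13.1 to 6.12 CPM, -1.10 ± 0.25), which switch off G protein signals, fell. Cdh5 is also in the glomerular endothelial marker list. Rgs5 is also in the mural marker list, and Rgs4 was not called when control pool 1 (0.0652) or 2 (0.0567) was left out. With the mural covariate, Abcg2, Acer2 and Sgms1 were the called pathway genes that kept their call. Klf2, a flow-induced factor known to act on the S1pr1 gene, varied widely within groups (1209 ± 412 CPM in control, 1368 ± 572 in STZ, SD, n = 3 each) and did not pass (0.18 ± 0.42, adjusted p = 0.848 by edgeR); it was chosen after its value was seen.

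**Figure D5:**
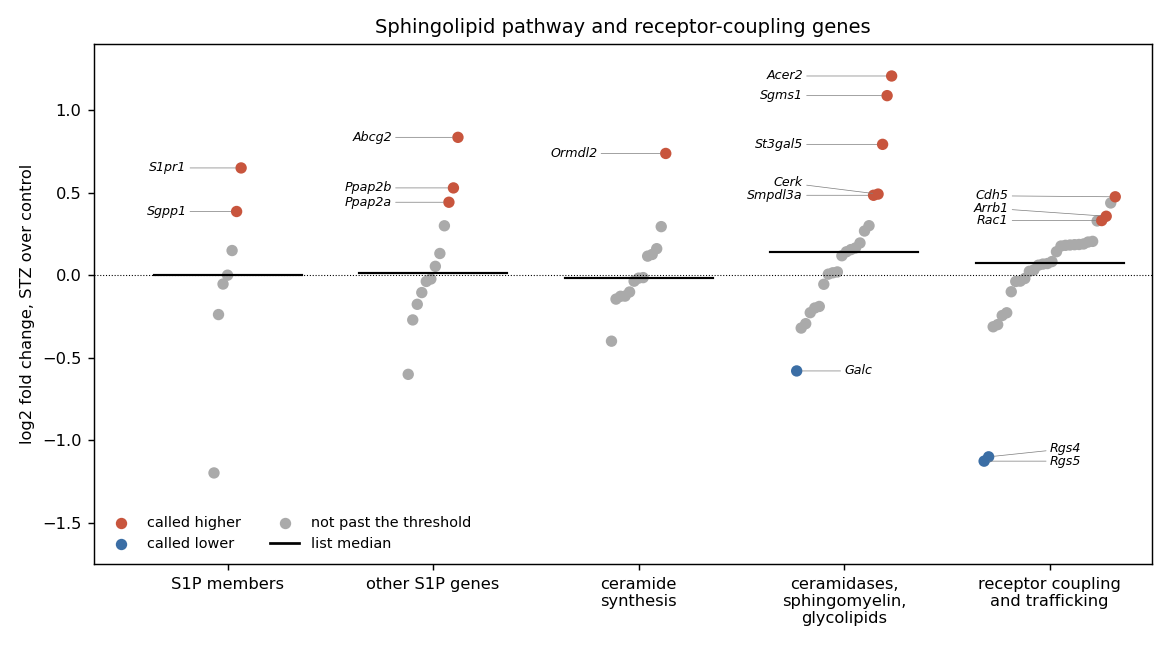
Log2 fold change of STZ over control for tested genes of 5 lists (1 ceramidase-list gene is not drawn), ordered within each list, with genes called by edgeR in colour and named. Acer2 and Sgms1 lie highest, above every S1P member, and the list medians (black lines) lie between -0.02 and 0.14.

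The tested genes whose log2 CPM followed S1pr1 most closely over the 6 libraries, among 10089 genes with a mean log2 CPM of at least 3, were the survival gene Bcl2l1 (Pearson r = 0.998), the semaphorin receptor gene Plxna2 (0.997), the ubiquitin ligase gene Hecw2 (0.996), the endoplasmic reticulum lectin gene Mlec (0.9955) and Cttnbp2nl (0.995). Bcl2l1 stood at 283, 244 and 273 CPM in control and 677, 667 and 649.5 CPM in STZ pools, so it separated the groups as S1pr1 did with a larger difference (1.32 ± 0.09). Sgpp1 was followed most closely by the TNF receptor gene Tnfrsf1a (0.995), Slc38a10 (0.991), the complex I subunit gene Ndufc2 (0.989), Syngr2 (0.986) and Tmem50a (0.9845). Tnfrsf1a stood at 263, 309 and 241 CPM in control and 335.5, 366 and 318 CPM in STZ pools, with pool 2 highest in each group, as for Sgpp1. Of these 5 genes Ndufc2 alone was called by edgeR (0.47 ± 0.12). These correlations describe the same 6 libraries, which share the group difference, depth and sex split.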

How the data were processed

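The authors deposited 1 table per library with an expected count per gene, RefSeq accession, coordinates and transcript length. Per the submitters' processing notes, the build was mm10 and limma was among the tools. Aligner, counter and strand setting were not given in the sources used here. Values were multiples of 0.5 and 34 blank cells, 0 of them in members, were read as 0. Listed starts plus 1 equalled a GENCODE vM21 start in 2193 of 5519 genes with a matching end (165 as listed), so 1 was added.

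Counts were rounded and fitted with edgeR 4.0.16 in R 4.3.3 (filterByExpr, TMM, robust quasi-likelihood F test, two-sided, 3 control against 3 STZ libraries), with Benjamini-Hochberg adjustment over 12786 genes. SE and 95% intervals come from the fitted model and its posterior quasi-dispersion. CPM per kb uses the listed transcript length. Depth sets the counting precision. Scarce members such as S1pr2 have the widest counting error. Planned ratios with Sphk1 were not computed. The script was tested on simulated counts. The result for 1 pathway gene is not reported here, though list counts and medians include it.

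Alternatives were DESeq2 1.42.0, limma-voom (limma 3.58.1), other normalizations and filters, a fit that was not robust, thinning to the shallowest library, a replicate block, marker covariates and leaving out each library. Named genes were the members, up to 4 called genes per pathway list with the smallest p (or 2 as values), the 2 most abundant markers per list, Nos3, and the 5 genes most correlated with S1pr1 and Sgpp1. The members and lists were chosen with earlier results of these data known. Replicate numbers are not stated to pair the libraries. Deviations of same-numbered control and STZ libraries correlated at 0.119, -0.128 and -0.163, and those of differently numbered ones at -0.243 to 0.295. With 3 libraries per group these correlations cannot decide whether the libraries are paired.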

Additional observations from a re-analysis of the deposited data

How the results depend on the processing

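S1pr1 kept its direction under all 17 alternatives and its call under all but the mesangial and mural covariate (0.69, adjusted p = 0.111). That covariate differs between the groups, and with it 143 genes were called in place of 1251, 0 members higher, and 2, 0, 1 and 0 genes of the ceramidase, ceramide synthesis, other S1P and coupling lists. Under it S1pr2 stood at 0.33, S1pr3 at 0.0203, Sgpl1 at 0.0177 and Sgpp1 at 0.24. With the podocyte covariate 2203 genes, 1 member lower (Spns2, -0.25) and 2 ceramide synthesis genes were called, and S1pr2 stood at 0.0373. S1pr2 also changed sign without a filter (0.0001), with 1 CPM in 3 libraries (0.0016) and in limma-voom (0.0013). Sgpp1 lost its call, leaving 1 member higher, with upper-quartile normalization (0.37), in limma-voom (0.39), when not robust (0.39) and when thinned (0.39). S1pr3 was called, giving 1 member lower, in DESeq2 (-1.20), in limma-voom (-1.29) and when not robust (-1.20). In DESeq2, limma-voom and the fit that was not robust, 0 ceramide synthesis genes were called.

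A replicate block was fitted although no pairing is stated and the correlations cannot decide it. With this block 1001 genes were called, and the members' calls stayed as they were (S1pr1 0.65, Sgpp1 0.39). In the same fit 0 ceramide synthesis and 3 coupling genes were called. Without 1 library, the count of called genes ran from 662 (without STZ pool 1) to 1291, with 720 without control pool 1. Members called higher ran from 1 to 2 and lower from 0 to 1, and called genes from 0 to 1 in ceramide synthesis, 1 to 3 among other S1P genes and 2 to 5 in coupling. Estimates ran from 0.61 to 0.67 for S1pr1, -0.10 to 0.10 for S1pr2, -1.39 to -0.91 for S1pr3 and 0.30 to 0.51 for Sgpp1. The cause of these changes was not tested.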

Other observations

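Lysophosphatidic acid, a lipid related to S1P, acts on its own receptors. Of 7 listed genes 3 were tested, and 0 were called by edgeR, DESeq2 or limma-voom (1 had an unadjusted p under 0.05). Lpar6, the most abundant of them in CPM, stood at 109 ± 19.9 in control and 99.9 ± 9.17 in STZ (SD, n = 3 each). Lpar5 was at 2.39 ± 0.710 and 1.21 ± 0.380 CPM (-0.96 ± 0.38, adjusted p = 0.135).

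Red blood cells are a main source of the S1P in plasma. Their markers, with those of platelets, were higher in STZ pools, with 4 of 6 tested called and a summed level of 38.35 to 72.9 CPM in control and 145 to 226 CPM in STZ. The part of these cells in the S1P genes was not tested. Leukocyte markers, of cells known for S1pr4, summed to 89.7 to 122 CPM in control and 92.6 to 105 CPM in STZ pools. Of 7 tested, 1 was called, Cd79a, which was lower (14.8 to 4.45 CPM, named because of its call). The list leaned the other way, with 5 estimates higher and 2 lower (median log2 fold change 0.27). Tubule markers summed to 124 to 451 CPM in control and 26.8 to 215 CPM in STZ pools, with 1 of 6 called lower. Of 5 listed lymphatic markers 2 were tested, and Prox1, Lyve1 and Ccl21a had no row. Flt4 was called higher (232 to 343 CPM, 0.56 ± 0.10, adjusted p = 0.00325 by edgeR). Pdpn went the other way and did not pass (26.8 to 17.0 CPM, -0.68 ± 0.28, adjusted p = 0.179 by edgeR).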
